A study of Homo sapiens with 8 samples.

Results

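miR-99a-3p was compared with miR-100-3p in PC3 cells, gene by gene. PC3 is an established human prostate cancer cell line that grows without androgen. Cells transfected with the mature miR-99a-3p and cells transfected with the mature miR-100-3p were each hybridised to 1 Agilent 2-colour array of 60-base probes, with mock PC3 cells, labelled as having had no transfection, in the other colour. The mock RNA carried the dye Cy3 and the RNA of the transfected cells carried Cy5 on both arrays, so no dye swap separates the dyes from the transfection. Each condition is therefore 1 array of 1 RNA pair from 1 cell line, the control is untransfected cells and not a control miRNA, and the labels do not say whether the mock RNA of both arrays was 1 extract. The quantity followed here is the difference, meaning the log2 ratio of miR-99a-3p over mock minus the log2 ratio of miR-100-3p over mock, so a negative value is a gene lower with miR-99a-3p. A gene entered when a probe had no outlier flag and was well above background in both colours of both arrays, and its brightest probe stood for it. That left 16304 genes of the 43317 on the array (37.6%), of which 11882 are protein-coding in RefSeq. With 1 array per condition there is no replicate and no test, and the sizes below describe these hybridised RNAs.

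A microRNA is a short RNA that guides an Argonaute protein to messenger RNAs. Pairing of its seed, bases 2 to 8 from the 5′ end, with a site in the 3′ untranslated region lowers the messenger and its protein. MIR99A and MIR100 belong to the same old microRNA family. Their 5p strands have the same seed, and MTOR is among the known targets of that seed. The 3p strands come from the other arm of each hairpin, were long seen as passenger strands that are degraded, and do not have the same seed. The comparison asks which genes move with both of these closely related 3p strands and which move with 1 of them.

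The 3p strands are shown because their letters are what differs between the conditions. Both are from RefSeq on GRCh38.p14, 5′ to 3′, with the seed in capitals.
hsa-miR-99a-3p: cAAGCUCGcuucuaugggucug
hsa-miR-100-3p: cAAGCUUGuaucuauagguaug
hsa-miR-99a-3p is at chr21:16539138-16539159 on the plus strand, in the hairpin MIR99A at chr21:16539089-16539169. hsa-miR-100-3p is at chr11:122152240-122152261 on the minus strand, in the hairpin MIR100 at chr11:122152229-122152308. The strands share 17 of 22 bases. Counted from 1 at the 5′ end, with the base of miR-99a-3p first, they differ by C7U, C9U, U10A, G16A and C20A, so 1 of the 5 differences lies in the seed and 6 of its 7 bases are the same. The 5p strands of the same hairpins share 21 of 22 bases and differ by U16A, outside their seed.

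Between 40.4% and 41.4% of the 60901 gene spots were well above background in Cy5 on these arrays, and 47.7% to 48.0% in Cy3. No gene spot was saturated, and 132 spots of the miR-99a-3p array and 173 of the miR-100-3p array carried an outlier flag. The mock channels had the profile of an epithelial line: 8 of 8 epithelial markers were well above background on both arrays, KRT19 at a processed signal of 186000 and 105000. Of the androgen axis 6 of 8 genes were above background, with TMPRSS2 at 445 and 256 and KLK3 below background on both. Of 6 squamous markers 1 was above background, SERPINB3 at 46.4 and 22.6. Among 11 markers of blood, endothelial and stromal cells, 6 were above background on 1 mock channel and 5 on the other. Their summed signal was 911 and 518, COL1A1 held 588 and 330 of it, and CD3E, COL3A1 and DCN were among those not above background.

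Log2 ratios were spread more widely on the miR-99a-3p array than on the miR-100-3p array. Uptake of the strands by the cells was not compared here, and the cause of the wider spread was not tested. The SD of the log2 ratio over all 16304 genes was 0.59 with miR-99a-3p and 0.33 with miR-100-3p, and the medians were 0.05 and 0.01. With miR-99a-3p 695 genes (4.26%) were lower by at least 1 log2 unit and 604 genes (3.7%) were higher by as much. With miR-100-3p 56 genes (0.343%) were lower and 121 genes (0.742%) were higher. The difference itself was at or below -1 for 738 genes (4.53%) and at or above 1 for 646 genes (3.96%), and its median over all genes was 0.03. It passed 2 log2 units for 61 genes in the negative direction and 29 in the positive. Feature Extraction gives each ratio a spot error, and the error of a difference, both spot errors in quadrature, had a median of 0.30. All 1384 differences past 1 exceeded 2 of their own errors. The size of 1 nearly fixes that outcome, since the largest error of any gene was 0.64. These errors cover the spots and not the cultures. With normexp background correction and loess in place of the deposited ratios, 511 genes were at or below -1 and 293 at or above 1, so the share of negative calls went from 53.3% to 63.6%.

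The genes were divided by where they passed 1 log2 unit. Genes lower on both arrays numbered 14, which is 2.01% of the 695 lower with miR-99a-3p and 25% of the 56 lower with miR-100-3p, beside 0.343% and 4.26% of all genes. Genes higher on both numbered 33, which is 5.46% of 604 and 27.3% of 121, beside 0.742% and 3.7%. The mock RNA may be shared by both arrays, so these overlaps are counts of the rule and no test of likeness. Genes past 1 on 1 array, within 0.58 of 0 on the other and with a difference past 1 were called specific to that array, which names these sizes and is not the outcome of a test. With miR-99a-3p 396 genes were specific and lower and 293 specific and higher. With miR-100-3p 21 were specific and lower and 25 specific and higher. A further 5 genes passed 1 log2 unit in opposite directions. The other genes past 1 lay between these groups, among them 283 of the 695 and 275 of the 604.

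**Figure D1:**
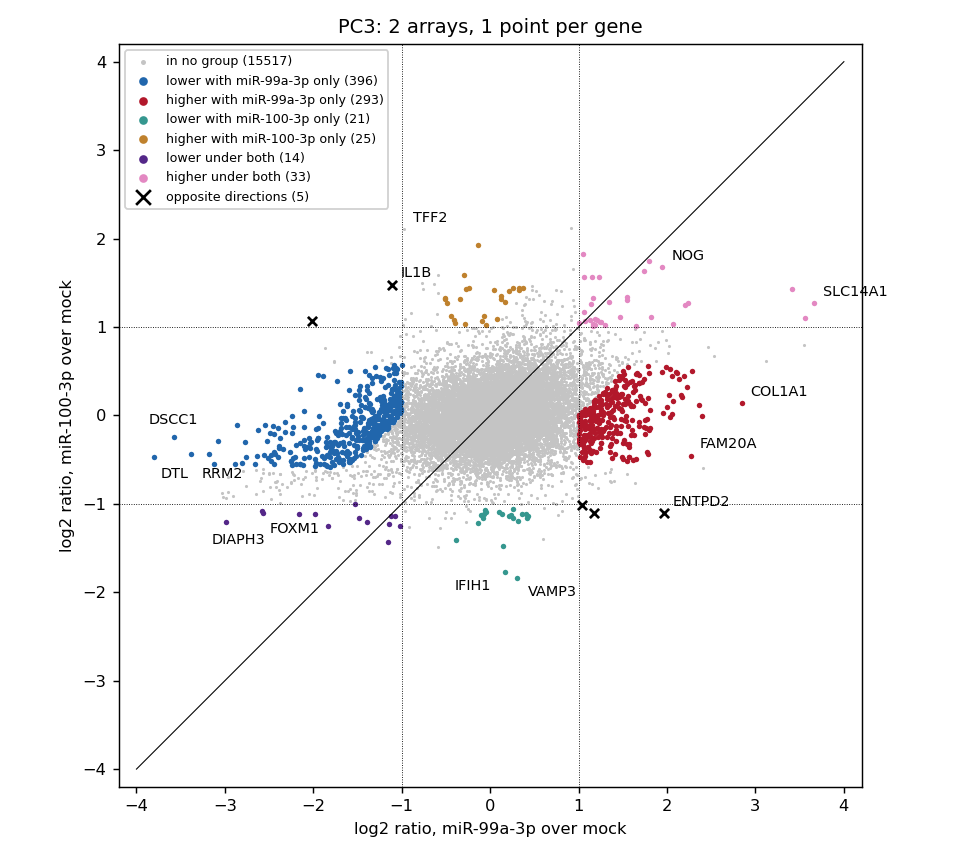
Log2 ratio over mock of each of 16304 genes on the miR-99a-3p array (x axis) and the miR-100-3p array (y axis), with dotted lines at 1 and -1 and the line of equal values. The specific genes of miR-99a-3p (396 lower, 293 higher) spread along the x axis to beyond -3, while only 14 and 33 genes lie in the corners where both arrays are past 1.

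The spread was in the transfected channels. When the Cy5 signals of both arrays were compared directly, each centred on its median, the differences had an SD of 0.57 and 1327 genes (8.14%) were past 1. The mock signals compared in the same way had an SD of 0.16, and 33 genes (0.202%) were past 1. The labels do not say whether both mock channels hold 1 extract, so this SD may hold no difference between cultures. Of the 1384 genes past 1 in the difference, 1169 were past 1 in the same direction in Cy5 alone, and 5 were past 1 in the mock channels. The SD between mock channels was 0.16 for this pair, 0.14 for the mock channels of the miR-150-5p and miR-150-3p arrays, and 0.27 for each of the 4 pairs across.

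**Figure D2:**
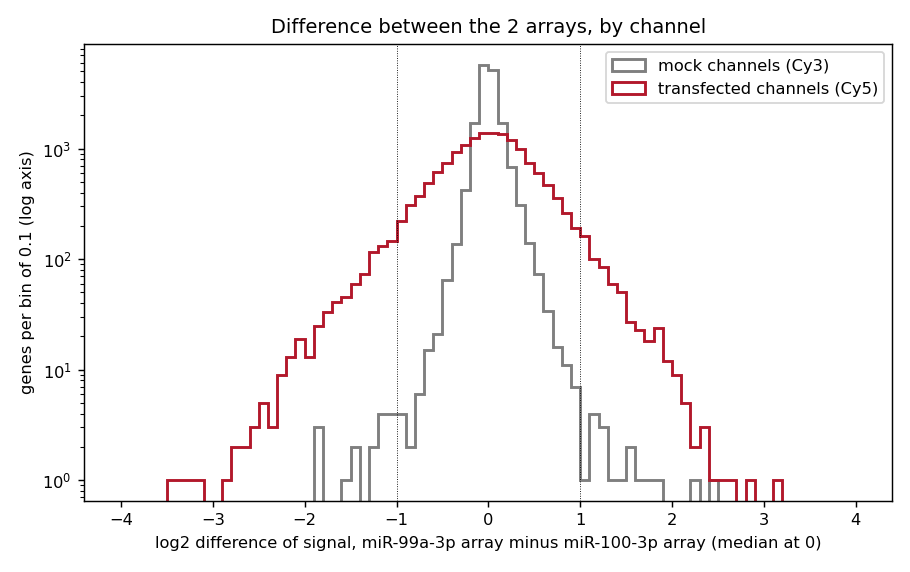
Number of genes per bin of 0.1 (log axis) against the log2 difference of signal between the miR-99a-3p and miR-100-3p arrays, for the mock channels (grey) and the transfected channels (red), each centred on its median. The grey curve is narrow (SD 0.16, 33 genes past 1), and the red curve is wide (SD 0.57, 1327 genes past 1).

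The lowest differences belonged mainly to genes of DNA synthesis and division. DTL, the substrate receptor of a ubiquitin ligase that clears licensing factors in S phase (probe at chr1:212277852-212277911 of hg19), had a signal of 1728 in mock and 124 with miR-99a-3p, against 1084 in mock and 784 with miR-100-3p. Its log2 ratios were -3.80 ± 0.41 (spot error) and -0.47 ± 0.21, a difference of -3.34 ± 0.46 over 9 spots of 1 probe. DSCC1, part of the clamp loader that acts on cohesion at the fork, went from 906 to 76 with miR-99a-3p and from 595 to 504 with miR-100-3p, a difference of -3.34 ± 0.45. Both were far below mock with miR-99a-3p and close to it with miR-100-3p. RRM2, the regulated subunit of ribonucleotide reductase (chr2:10270487-10270546), went from 884 to 85 and from 518 to 382, a difference of -2.95 ± 0.44. The kinesin KIF15 (chr3:44894386-44894445) differed by -2.75 ± 0.42, the transcription factor E2F2 by -2.80 ± 0.41, AUNIP, which binds Aurora A and acts at broken DNA ends, by -2.74 ± 0.40, and the checkpoint protein ZWILCH by -2.57 ± 0.41. In each of these 4 genes the miR-100-3p ratio lay between -0.55 and -0.11.

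The other 3 of the 10 lowest coding genes were below mock with miR-99a-3p and above it with miR-100-3p. TFF2, a secreted peptide of mucous epithelia, had log2 ratios of -0.97 ± 0.22 and 2.11 ± 0.28. IL1B, the cytokine interleukin 1 beta, had -1.11 ± 0.23 and 1.48 ± 0.24, and AEN, an exonuclease that responds to p53, had -1.87 ± 0.30 and 0.76 ± 0.23. A second probe of AEN gave a smaller difference, -1.48 against -2.63.

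The 10 highest differences of coding genes included 2 collagen chains and an integrin, a kinase and a histone. FAM20A, which assists the kinase of secreted proteins (chr17:66533368-66533427), went from 1667 in mock to 8044 with miR-99a-3p and from 1089 to 794 with miR-100-3p, a difference of 2.73 ± 0.36. COL1A1, the main chain of type I collagen (chr17:48261509-48261568), went from 588 to 4217 and from 330 to 363, a difference of 2.70 ± 0.39. The integrin subunit ITGB8 (chr7:20455137-20455196) had log2 ratios of 1.78 ± 0.26 and -0.44 ± 0.21. All 3 were higher with miR-99a-3p and close to mock with miR-100-3p. UTS2B, a urotensin-related peptide, differed by 2.75 ± 0.53 from a mock signal of only 35 and 29, and is among the dimmest genes named. COL21A1 differed by 2.51 ± 0.43, the urea transporter SLC14A1 by 2.39 ± 0.47, the kinase NUAK1 by 2.21 ± 0.33, and the histone HIST1H2BK by 2.15 ± 0.33. Among the first specific genes by size, LDOC1 had log2 ratios of 1.61 and -0.51, and RECK, a membrane inhibitor of matrix proteases, had 1.55 and -0.51, although a second probe of RECK gave a difference of -0.12 against 2.06. ENTPD2 (3.07 ± 0.38) and BAI1 (2.28 ± 0.38) had opposite directions and are described with the opposed genes.

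Lists of cell cycle genes were low with miR-99a-3p too. The lists were chosen with earlier results of these data known and hold genes named above, among them DTL and RRM2. They are therefore no separate support for the low values above. DNA replication genes open the origins, unwind the helix and copy it. All 42 measured members of 47 were below mock with miR-100-3p, beside 49% of all genes. With miR-99a-3p 36 were lower by at least 1 and with miR-100-3p 0, beside 4.26% and 0.343% of all genes. The median log2 ratio was -1.72 with miR-99a-3p and -0.33 with miR-100-3p, and the median difference was -1.37, beside 0.03 over all genes. The difference was at or below -1 in 31 members, beside 4.53% of all genes. The epigenetic reader UHRF1 had log2 ratios of -2.54 and -0.10, the helicase activator CDC45 -2.80 and -0.54, the origin protein ORC6 -2.53 and -0.29 and the flap nuclease FEN1 -2.64 and -0.62. PCNA, the sliding clamp, was less far apart at -1.31 and -0.27. RPA1 and RFC1 were near mock on both arrays, with differences of 0.03 and 0.04. The enzymes of deoxynucleotide supply were lower too: 7 of 7 measured genes passed 1 with miR-99a-3p and 1 did with miR-100-3p, with medians of -1.66 and -0.59. Thymidylate synthase TYMS had -2.76 and -0.80, and thymidine kinase TK1 had -2.58 and -1.08. DUT, which removes dUTP, had the smallest difference at -0.44 ± 0.31.

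The mitotic lists had a similar gap with somewhat lower values under miR-100-3p. Of 25 mitotic control genes, 22 were lower by at least 1 with miR-99a-3p and 1, FOXM1, with miR-100-3p, and the medians were -1.85 and -0.48. Of all genes 4.26% and 0.343% were lower by as much. The checkpoint kinase TTK had -2.77 and -0.30, the ubiquitin-conjugating enzyme UBE2C -2.96 and -0.69, CDK1 -3.02 and -0.92 and the Aurora kinase AURKB -2.24 and -0.20. CDC25B differed by -0.24 ± 0.29, the smallest gap of the list. Of 22 genes of the spindle and cytokinesis, 19 passed -1 with miR-99a-3p and 0 with miR-100-3p, with medians of -2.0 and -0.56. The kinesin KIF11, which pushes the spindle poles apart, had -2.43 and -0.75. KIF20B was the least different at -0.46 ± 0.30. Of 35 genes of the kinetochore and centromere, 28 passed -1 with miR-99a-3p and 0 with miR-100-3p, with medians of -1.97 and -0.55. ZWINT had -2.80 and -0.63 and SPC25 had -3.04 and -0.87, whereas ZW10, of the same complex as ZWILCH, had -0.57 and -0.59, a difference of 0.02 ± 0.30.

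Cohesin and condensin were split, and DNA repair genes were low as a group. Of 17 measured cohesin and condensin genes 5 passed -1 with miR-99a-3p and 0 with miR-100-3p, with medians of -0.69 and -0.38. Of all genes 4.26% and 0.343% were lower by as much. The condensin subunit NCAPG, too dim with miR-99a-3p to be measured, was at -1.05 with miR-100-3p. CDCA5, the cohesin protector sororin, had -2.48 and -0.45 and NCAPG2 had -2.04 and -0.47, while the core subunit STAG2 had -0.46 and -0.41. PDS5B had the highest difference of the list, 0.50 ± 0.36. Of 25 genes of the Fanconi and recombination pathways, 16 passed -1 with miR-99a-3p and 0 with miR-100-3p, with medians of -1.60 and -0.38. The nuclease EXO1 had -2.76 and -0.47 and FANCA -2.33 and -0.19. FAN1 ran the other way, with 0.34 and -0.36. Over each of these 7 lists the median difference between the 2 mock channels lay between -0.04 and 0.04. Arrays measure a share of labelled RNA, so fewer cells in S phase or mitosis and less of these messengers per cell cannot be told apart.

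**Figure D3:**
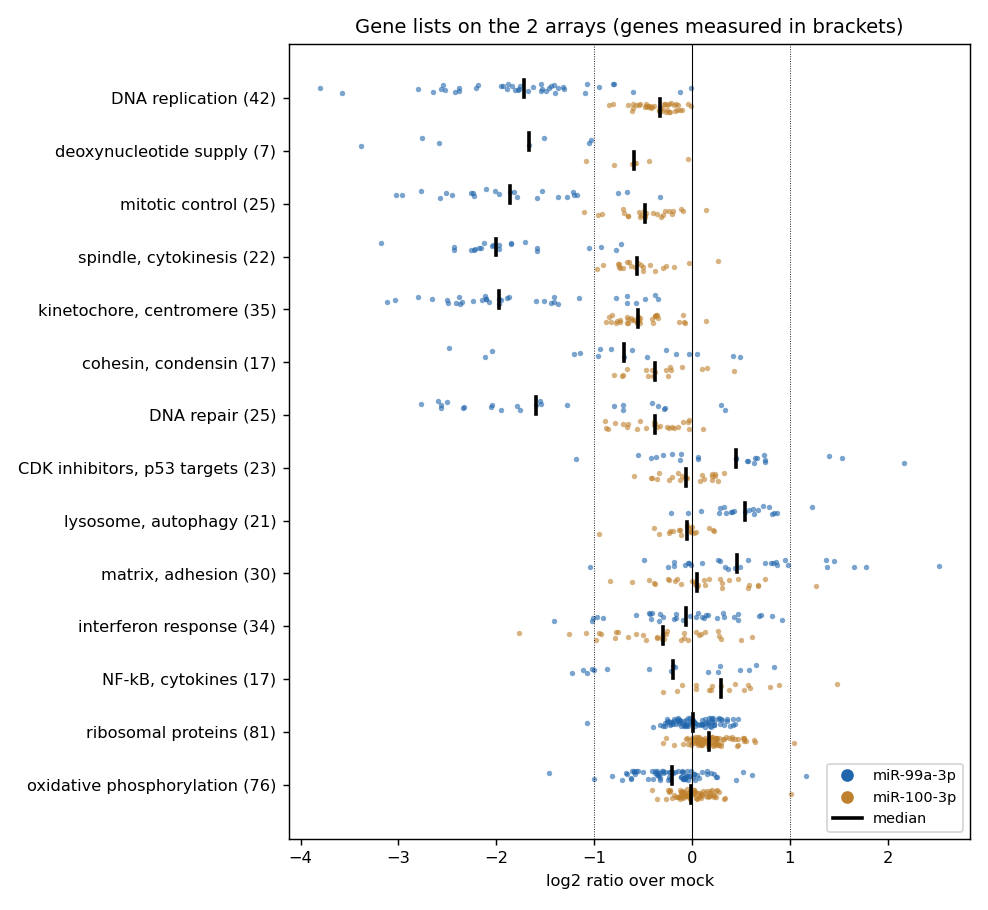
Log2 ratio over mock of the measured members of 14 gene lists with miR-99a-3p (blue) and miR-100-3p (ochre), with a bar at each median and dotted lines at 1 and -1. The blue points of replication, nucleotide, mitotic, spindle, kinetochore and repair genes have medians from -2.0 to -1.60, while the ochre medians of the same lists lie between -0.59 and -0.33.

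Some of the same genes were too dim with miR-99a-3p for a ratio and had a bound. In 587 genes the only channel not well above background was Cy5 of the miR-99a-3p array, and in 900 genes the only such channel was Cy5 of the miR-100-3p array. The bound on the difference was at or below -1 in 202 of the former and at or above 1 in 179 of the latter. NCAPG, a condensin subunit and the gene the study went on to test as a target of miR-99a-3p, had a mock signal of 211 and a transfected signal of 14.5, not well above background. It was at least 4.61-fold lower than mock with miR-99a-3p. With miR-100-3p its signal went from 122 to 59.2, a log2 ratio of -1.05 ± 0.27 (spot error). The clamp loader subunit RFC3 was at least 7.66-fold lower than mock with miR-99a-3p, and its log2 ratio with miR-100-3p was -0.29 ± 0.22. The phosphatase CDC25C was at least 9.13-fold lower and -0.62 ± 0.22, the kinase NEK2 at least 7.55-fold lower and -0.31 ± 0.21, and MTFR2 at least 9.12-fold lower and -0.33 ± 0.21. KRT37, a hair keratin, was at least 2.75-fold lower with miR-99a-3p and had a log2 ratio of 2.63 ± 0.32 with miR-100-3p. IL37, an inhibitory member of the interleukin 1 family, was at least 1.76-fold lower and 3.03 ± 0.35. These bounds rest on the lowest Cy5 signal called above background, 45.8 on the miR-99a-3p array, or on the probe's own signal where that was higher.

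The genes the study listed as candidate targets of miR-99a-3p had predicted sites for it in their 3′ untranslated regions. They were then chosen for low values on the miR-99a-3p array itself. Neither their ratios there nor the differences built from them are therefore evidence about them. The miR-100-3p array is not named in that choice. Of the 29 candidates looked up here, which are not the study's whole list, 18 were measured. Another 6 were dim only in Cy5 of the miR-99a-3p array. Their median was -2.37 with miR-99a-3p and -0.61 with miR-100-3p. With miR-100-3p 16 of the 18 were below mock, beside 49% of all genes, and 0 of the 18 passed -1. The 2 above mock were ZNF695 (0.41) and PRTFDC1 (0.49). CDKN3, a phosphatase of cell cycle kinases, was the lowest of the 18 with miR-100-3p at -0.99, beside -2.37 with miR-99a-3p. NCAPG, left out of the 18 because it was dim with miR-99a-3p, was at -1.05 with miR-100-3p. PIGL, an enzyme of GPI anchor synthesis, had the smallest difference at -0.40 ± 0.30, and its second probe gave 0.05. Its log2 ratio with miR-99a-3p was -0.46 with the probe used here, much closer to mock than the value the study lists. With these probes 15 of the 18 passed -1 with miR-99a-3p, although the study's cut-off was lower than -1. The cause of this gap was not tested.

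Promoters of the genes lower with miR-99a-3p were searched for letters that cell cycle factors are known to bind, because these genes lay low together. The window was 250 bases before to 50 bases after each RefSeq gene start (GRCh38.p14), and both strands were read. E2F factors of the G1 to S transition bind letters such as TTTGGCGC, TTTCCCGC, TTTGCCGC and TTTCGCGC. At least 1 of these 4 stood in 15.1% of 285 promoters of the specific lower genes of miR-99a-3p, in 4.0% of 200 promoters of its specific higher genes, in 5.32% of 10437 promoters of measured genes and in 3.33% of all 27305 promoters. TTTGAA, the letters of the element of mitotic genes, stood in 21.1%, 10%, 9.53% and 15.4% of the same promoters, and CCAAT in 44.9%, 38.0%, 37.1% and 35.7%. Matches of different elements may share bases. The E2F letters stood in 2 of 12 promoters of genes lower on both arrays and in 1 of 10 promoters of the specific lower genes of miR-100-3p. Matches show letters and not binding. Windows of up to 30 bases around the match are given for 9 of the named genes whose promoter held the E2F letters, whichever way they lay, in the direction of the gene, with the matched letters in capitals.
DTL: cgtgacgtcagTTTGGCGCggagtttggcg
E2F2: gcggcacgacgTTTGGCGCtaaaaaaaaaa
KIF15: gtccgatccaaGCGCCAAAttcaaatttgc
CDCA5: cttccgcttccTTTCCCGCagggcgggtaa
EXO1: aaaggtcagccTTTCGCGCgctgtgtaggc
HIST1H4L: catgtctgggcGCGGCAAAggcgggaa
AEN: tctctttaaaaTTTCCCGCcagtatggccg
HIST1H2BK: aacactattggGCGCGAAAaagaagatatg
IFIH1: ttccttttctgTTTCCCGCggtgtccttaa
The windows are at chr1:212035729-212035758 (plus strand) for DTL, chr1:23531257-23531286 (minus strand) for E2F2, chr3:44761740-44761769 (plus strand) for KIF15, chr11:65084067-65084096 (minus strand) for CDCA5, chr1:241848197-241848226 (plus strand) for EXO1, chr6:27873485-27873511 (minus strand) for HIST1H4L, chr15:88621130-88621159 (plus strand) for AEN, chr6:27147046-27147075 (minus strand) for HIST1H2BK and chr2:162318813-162318842 (minus strand) for IFIH1. The matches of KIF15, HIST1H4L and HIST1H2BK are on the opposite strand. Those of EXO1 and HIST1H4L lie after the gene start, at positions 4 and 34, so inside the transcribed part of the window. The HIST1H4L match follows the letters atg and may be coding sequence. With miR-99a-3p 7 of these genes had log2 ratios of -3.80 to -1.87. HIST1H2BK was at 1.65 and IFIH1 at 0.17, so the letters also stood in windows of genes that were not lower.

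Histone genes differed by family. Replication-dependent histone genes are copied in S phase, in clusters of near-identical genes, so a probe can take up RNA of a sister gene and the values of single members are uncertain. Of 58 measured genes 18 passed -1 and 12 passed 1 with miR-99a-3p, beside 4.26% and 3.7% of all genes. With miR-100-3p 54 of 58 were below mock and 1 passed -1, beside 49% and 0.343% of all genes. H2B genes were mostly higher with miR-99a-3p: 8 of 16 passed 1, and their medians were 1.02 with miR-99a-3p and -0.27 with miR-100-3p. HIST1H2BK had 1.65 ± 0.25 and -0.50 ± 0.21, HIST2H2BF 1.80 and 0.06, and the 3 below mock with miR-99a-3p were HIST1H2BF (-1.87 and -0.63), HIST3H2BB (-0.91 and -0.59) and HIST2H2BE (-0.30 and -0.46). H3 genes were mostly lower: 12 of 13 had a negative difference, beside 47.7% of all genes, and their medians were -1.0 and -0.58. HIST2H3A had -2.91 and -0.91 and HIST1H3B had -2.48 and -0.95. H4 genes parted within the family. HIST1H4L, HIST1H4C and HIST1H4B had -2.97, -2.99 and -2.65 with miR-99a-3p, while HIST1H4H, HIST1H4F and HIST2H4B had 0.49, 0.53 and 0.47. All 12 H4 genes lay between -0.94 and -0.13 with miR-100-3p. The linker histone HIST1H1D was lower on both arrays, at -2.17 ± 0.29 and -1.11 ± 0.23.

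**Figure D4:**
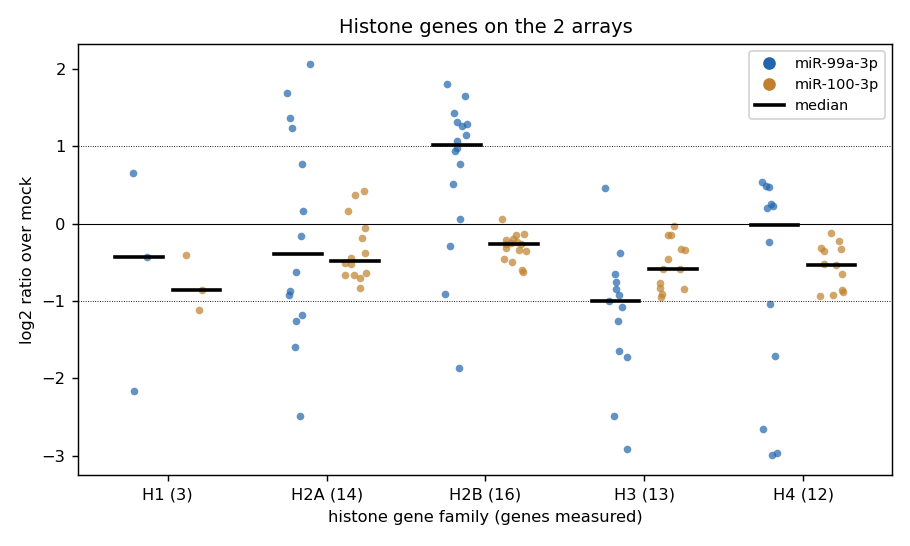
Log2 ratio over mock of 58 histone genes by family with miR-99a-3p (blue) and miR-100-3p (ochre), with a bar at the median and dotted lines at 1 and -1. With miR-99a-3p the H2B median is 1.02 and the H3 median -1.0 and the H2A and H4 points spread to both sides, while with miR-100-3p the medians of all 5 families lie between -0.86 and -0.27.

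Other lists were higher with miR-99a-3p. Inhibitors of cyclin-dependent kinases and p53 target genes had medians of 0.45 with miR-99a-3p and -0.07 with miR-100-3p over 23 genes. Of the differences 4 passed 1, beside 3.96% of all genes. TP53INP1, a stress protein of autophagy, had 2.17 and 0.20, the kinase inhibitor CDKN1C 1.54 and -0.07, CDKN2B 1.40 and 0.21 and CDKN2C 0.74 and -0.35. DDB2, a DNA damage sensor, was the lowest at -1.18 and -0.59, a difference of -0.59 that was -1.58 with its other probe. Lysosome and autophagy genes had smaller shifts of 1 sign: 20 of 21 differences were above 0, beside 52.3% of all genes, the medians were 0.54 and -0.05, and 2 passed 1. GABARAPL1, a ubiquitin-like protein of autophagosomes, had 1.23 and -0.19, the lysosomal membrane protein LAMP2 0.73 and -0.33 (its 3 probes gave differences of 0.29 to 1.16) and the protease CTSB 0.87 and -0.05. GLA, a lysosomal galactosidase, was the only one below 0, at -0.20 ± 0.29.

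Matrix and adhesion genes were higher in part. Of 30 measured genes 6 differences passed 1 and 1 passed -1, beside 3.96% and 4.53% of all genes. The medians were 0.46 and 0.06. Next to ITGB8, the basement membrane collagen COL4A1 had 1.39 and 0.06, the laminin chain LAMC1 1.65 and 0.47, COL5A1 2.53 and 0.68, the matrix protein SPARC 1.37 and -0.61 and the integrin ITGB1 0.99 and -0.83. SPARC and ITGB1 lay on opposite sides of mock on the 2 arrays. Among 15 genes of epithelial and mesenchymal state the cadherins CDH3 (1.37 and -0.32), CDH1 (0.85 and -0.49) and the claudin CLDN1 (1.66 and 0.48) had differences past 1, of which CDH3 was the highest at 1.69 ± 0.32 and CLDN4 the lowest at -0.72 ± 0.30, so the higher members included the epithelial cadherin. In the microRNA silencing machinery DICER1, which cuts hairpins into mature strands, had 1.71 and 0.17, a difference of 1.54 ± 0.33. AGO2, the slicing Argonaute, had -0.77 and 0.01. The other 11 measured members had differences between -0.34 and 0.91.

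Cytokine genes parted between the strands. NF-kB is the factor that switches on many inflammatory cytokines. Of 17 measured genes of this list 7 differences passed -1 and 0 passed 1, beside 4.53% and 3.96% of all genes. Besides IL1B, the neutrophil chemokines CXCL6 (-1.02 and 0.89), CXCL1 (-1.23 and 0.38), CXCL5 (-1.07 and 0.04) and CXCL3 (-0.87 and 0.17) and the cytokines LIF (-1.0 and 0.57) and IL6 (-0.44 and 0.80) had log2 ratios below mock with miR-99a-3p and above it with miR-100-3p. CXCL8 was at least 2.29-fold lower with miR-99a-3p and 0.74 ± 0.26 with miR-100-3p. The components and brakes of the pathway lay close together, with differences of 0.12 for NFKB1, 0.12 for NFKBIA and 0.05 for TNFAIP3. BIRC3 was the highest at 0.65 ± 0.31. The median difference of the list was -0.06. It was -0.79 where 1 colour above background was enough and -0.53 with no filter.

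Interferon-response genes scattered in both directions. Of 34 measured genes 3 differences passed -1 and 4 passed 1, beside 4.53% and 3.96% of all genes. The median difference was 0.26. IFIH1, the sensor of long double-stranded RNA (chr2:163128806-163128865), had 0.17 ± 0.21 with miR-99a-3p and -1.77 ± 0.28 with miR-100-3p, with signals of 206 in mock and 61 with miR-100-3p. The immunoproteasome subunit PSMB9 had 0.43 and -0.98 and SAMD9L had 0.92 and -0.36. The nuclease ISG20 ran the other way at -1.41 and 0.50. OASL, a member of the oligoadenylate synthetase family, was past -1 on both arrays at -1.01 and -1.26. No measured interferon gene was higher by 1 on either array, beside 3.7% and 0.742% of all genes. The median of the list was 1.84 on the array of PC3 cells with miR-150-3p.

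Genes lower with both strands numbered 14 under the filter on both colours, which leaves out genes that became dim, and 101 when 1 colour above background was enough. Of the 14 differences between the arrays 5 exceeded 2 errors. DIAPH3, a formin that nucleates actin (chr13:60686155-60686214), went from 731 in mock to 92 with miR-99a-3p and from 442 to 191 with miR-100-3p, with log2 ratios of -2.99 ± 0.35 and -1.21 ± 0.24. FOXM1, the factor that drives mitotic genes (chr12:2967322-2967381), had -2.57 ± 0.31 and -1.10 ± 0.23, and TK1 had -2.58 ± 0.31 and -1.08 ± 0.23. These 3 and HIST1H1D had differences past -1, so they are shared in direction and not in size. NOX5, a calcium-dependent oxidase, had -1.98 and -1.11. MMS22L, which protects stalled forks (-1.84 and -1.25), and SKP2, the ligase subunit that clears the inhibitor p27 (-1.49 and -1.16), lay closer together. C15orf48 had -1.40 and -1.21. Of the other 6, named after their values were seen, MXD3 (-1.08 and -1.14), MAGOHB (-1.12 and -1.14), PM20D2 (-1.16 and -1.44), OASL and LINC01515 (-1.15 and -1.23) were as low or lower with miR-100-3p, and SYCE2 had -1.53 and -1.0. MAGOHB is nearly identical to MAGOH, so its signal may hold that of both. After normexp and loess 5 genes were past -1 on both arrays, and DIAPH3 (-2.20 and -1.06), FOXM1 (-2.41 and -1.09), HIST1H1D (-2.16 and -1.10), MAGOHB (-1.20 and -1.18) and MXD3 (-1.11 and -1.13) were those.

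Genes higher with both strands included a ligand and its inhibitor. BMP2, a bone morphogenetic protein (chr20:6760810-6760869), had log2 ratios of 1.80 ± 0.31 and 1.74 ± 0.33, from mock signals of only 55 and 29. NOG, the secreted protein noggin that binds and blocks BMPs (chr17:54672456-54672515), went from 308 to 1186 with miR-99a-3p and from 216 to 689 with miR-100-3p, ratios of 1.95 ± 0.27 and 1.67 ± 0.26. Both differences, 0.05 ± 0.45 and 0.27 ± 0.38, lay within their error. SLC14A1 was past 1 on both arrays at very unequal size, 3.66 ± 0.40 and 1.27 ± 0.24. MPZL3 (2.24 and 1.27) and CADM2 (2.21 and 1.25), membrane proteins with immunoglobulin domains, were higher with miR-99a-3p by 0.97 ± 0.38 and 0.96 ± 0.42. ACOXL (1.74 and 1.63) and the adhesion molecule CEACAM1 (1.55 and 1.34) differed by less than their error. The mock signals of ACOXL were only 64 and 26, and its mock channels differed by 0.63. SCUBE3, a secreted protein that binds the TGF-beta receptor, had 1.05 and 1.83, but its mock channels differed by 0.66 and its transfected channels by only -0.16. Named after their values were seen, the hyaluronan synthase HAS2 had 1.55 and 1.31, the early response factor EGR2 1.35 and 1.28, the phosphodiesterase PDE4B 1.23 and 1.56 and the protease ADAM12 1.14 and 1.26. Of the 33 genes 27 were protein-coding, and after normexp and loess 7 genes were past 1 on both arrays. BMP2 (0.93 and 0.82), ACOXL (0.94 and 0.71) and EGR2 (0.48 and 0.38) were not among them, and NOG was, at 1.62 and 1.49.

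Genes specific to miR-100-3p were fewer. VAMP3, a SNARE protein of endosome recycling (chr1:7840956-7841015), went from 2644 in mock to 741 with miR-100-3p and from 4125 to 5091 with miR-99a-3p, log2 ratios of -1.84 ± 0.26 and 0.30 ± 0.21. It and IFIH1 were the lowest coding genes of the group. TMEM30A, the partner of lipid flippases (-1.12 with miR-100-3p and 0.36 with miR-99a-3p), CASC4 (-1.19 and 0.31), PIR, an iron-binding nuclear protein (-1.16 and 0.26), and CCDC53 (-1.12 and 0.24) lay just past -1. The median of the 21 genes was -1.14 with miR-100-3p and 0.17 with miR-99a-3p, and that of the 25 higher genes was 1.32 and -0.09. On the higher side PLA2G4A, the phospholipase that frees arachidonic acid, had 1.43 ± 0.25 with miR-100-3p and -0.28 ± 0.22 with miR-99a-3p over 9 spots. FGFBP1, a carrier of fibroblast growth factors, had 1.45 and -0.24, NIPAL4 1.31 and -0.51, the phosphatase DUSP5 1.12 and -0.45 and TMEM171 1.92 and -0.14. The group held 18 coding genes. Named after their values were seen, INHBA, a subunit of activin (1.07 and -0.09), and the alarmin IL33 (1.40 and 0.21) were in the same group. After normexp and loess 8 genes were specific and lower and 14 specific and higher with miR-100-3p.

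**Figure D5:**
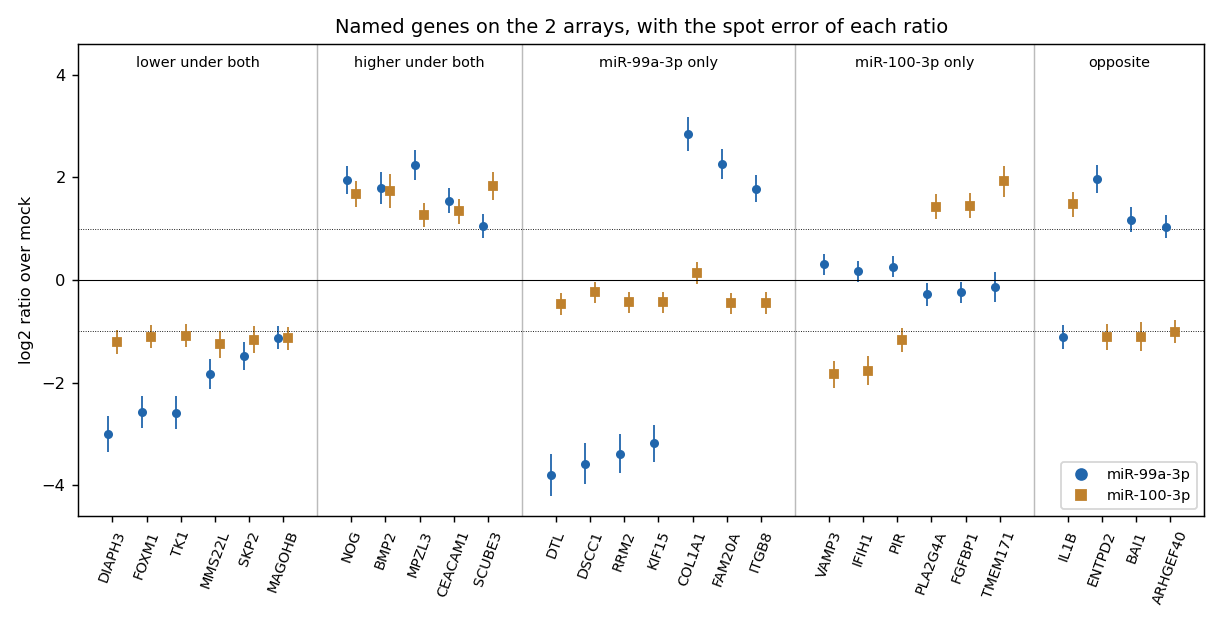
Log2 ratio over mock of 28 named genes with miR-99a-3p (blue circles) and miR-100-3p (ochre squares), bars showing the spot error of each ratio (1 array each) and dotted lines 1 and -1. NOG and BMP2 overlap within their errors, DTL and DSCC1 lie at -3.80 and -3.58 with miR-99a-3p and near 0 with miR-100-3p, and VAMP3 lies at -1.84 with miR-100-3p and 0.30 with miR-99a-3p.

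Opposite directions past 1 log2 unit were found in 5 genes. IL1B (chr2:113587429-113587488) went from 6490 in mock to 3003 with miR-99a-3p and from 4060 to 11317 with miR-100-3p. It was lower with the former and higher with the latter, a difference of -2.59 ± 0.33. The antisense RNA FUT8-AS1 had -2.01 and 1.07. ENTPD2, an enzyme that splits extracellular ATP, had 1.96 ± 0.28 and -1.11 ± 0.26. BAI1, an adhesion receptor (1.17 ± 0.25 and -1.11 ± 0.28), and ARHGEF40 (1.04 ± 0.23 and -1.01 ± 0.23), were also higher with miR-99a-3p. After normexp and loess IL1B alone was past 1 on both arrays, at -1.20 and 1.34.

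Housekeeping and metabolic lists had smaller differences. The median difference was -0.16 over 81 ribosomal protein genes and -0.22 over 76 genes of oxidative phosphorylation, with 69 and 58 members below 0, beside 47.7% of all genes, and 1 past -1 in each. RPL27A had -0.40 and 1.05 and NDUFA12 had -1.46 and 0.11. The RPL27A probe was dim, with mock signals of only 128 and 66, beside 62031 and 38374 for RPL26. Sterol and fatty acid genes had a median difference of 0.18 over 28 genes, with ELOVL6, which lengthens fatty acids, at -0.79 and 0.64 and INSIG1, which holds back sterol synthesis, at 1.15 and 0.00. Stress genes of the unfolded protein response and ATF4 had a median of -0.02 over 23 genes, with the folate enzyme MTHFD2 at -1.13 and -0.02 and VLDLR at 1.41 and 0.39. Genes of hypoxia and glycolysis had a median of 0.10 over 23 genes, from HK2 at -0.55 to ANKRD37 at 1.14, and targets of NRF2 had 0.08 over 14, from HMOX1 at -0.56 to NQO1 at 0.92. Among the 8 epithelial markers KRT19 had the lowest difference, -0.88 ± 0.30, and CDH1 the highest, and of 3 measured genes of the androgen axis TMPRSS2 was lowest at -0.76 ± 0.31. In the list of other cell types PECAM1 differed by -0.13 ± 0.35, and COL1A1 was the other member measured.

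PC3 cells with the strands of miR-150 on the same slide give a context for these groups, and no comparison was made with them. Over the 396 genes specific and lower with miR-99a-3p the median log2 ratio was -0.14 with miR-150-5p and -0.57 with miR-150-3p, and 13 and 64 of them were past -1, beside 0.798% and 2.36% of all genes measured on those arrays. Over the 293 specific and higher genes the medians were 0.32 and 0.48, with 9 and 43 past 1, beside 0.305% and 1.95%. DTL had -0.15 and -1.19 there, and COL1A1 had 0.15 and 0.54. The 7 cell cycle lists had medians between -0.42 and -0.02 with miR-150-5p and between -0.88 and -0.26 with miR-150-3p. Over all genes the medians were 0.02 and 0.01. Of the 14 genes lower on both arrays 1 was past -1 with miR-150-5p and 3 with miR-150-3p, and of the 33 higher genes 3 and 4 were past 1. ADAM12, higher with both 3p strands, was at -3.07 with miR-150-3p. BMP2 had 1.30 and 0.71, and IFIH1 had -0.25 and 2.29.

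The array probes were searched for the letters that would pair with each seed. A probe covers 60 bases of a gene, so this shows only whether those bases hold the site. CGAGCTT, the site of the miR-99a-3p seed, stood in the probe of 12 genes (0.0736%), whose median log2 ratio was -0.37 with miR-99a-3p and -0.04 with miR-100-3p. The lowest was CPTP, a lipid transfer protein, at -1.25 and -0.16. With miR-99a-3p 8 of the 12 were below mock, beside 7439 of all 16304 genes. The letters of the other strand, AAGCTCG, which are no site, stood in 11 genes. Their median with miR-99a-3p was -0.04, and 7 of them were below mock. CAAGCTT, the site of the miR-100-3p seed, stood in the probe of 87 genes (0.534%), whose medians were -0.11 with miR-100-3p and 0.03 with miR-99a-3p, and 59 of the 87 (67.8%) were below mock with miR-100-3p, beside 49% of all genes. The same letters read on the other strand, AAGCTTG, which is no site, stood in 77 genes with a median of -0.20 with miR-100-3p, and 56 of them (72.7%) were below mock. Of the 7 letters 6 read the same on both strands. MAGOHB was the only gene with CAAGCTT in its probe that was past -1 with miR-100-3p.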

How the data were processed

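Each sample is 1 array, and its group was taken from the transfection named in the sample labels. The authors scanned the arrays with Agilent Feature Extraction 10.7.3.1, per the file headers, on a design annotated on hg19. In the files the authors deposited, intensities of each dye had background and dye bias removed by that software, and log10 ratios (Cy5 divided by Cy3) carry a spot error. The signals are not scaled between arrays. The ratios were multiplied by 3.3219 to log2, spots of a probe averaged and the brightest probe over the 4 channels kept per gene name. The deposited table of the whole series also holds log10 ratios, which were equal to those of the scanner files, and its 4 columns of samples from other cell lines were not used. Of 16304 genes, 13240 matched RefSeq. The members and lists were chosen with earlier results of these data known. Genes named are the 10 lowest and 10 highest differences, the 8 first shared genes in each direction, the 6 first in each specific group, the opposed genes and the ends of each list, all protein-coding except in lists, where further members are examples chosen after their values were seen. RECK and PIGL, whose probes disagree in sign, are given with the alternatives. No test was run and no list was tested. Some genes that this rule names are not reported here. Bounds are for genes dim only in Cy5 of 1 array. Alternatives used limma 3.58.1 (R 4.3.3) with normexp at an offset of 50 and loess, other filters, probes and sizes, the median as centre, and Cy5 alone. The steps were tested on simulated data. Other steps used Python, pandas and numpy. A probe's exon was not annotated, since no hg19 annotation was used here, and the letters of target sites in transcripts were not analysed here. The time between transfection and RNA extraction is not given in the sources used here.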

Additional observations from a re-analysis of the deposited data

Results flagged for a closer look

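The 5 opposed genes passed 1 log2 unit in opposite directions on the 2 arrays. Each condition is 1 array, and the difference was not tested. The differences of miR-99a-3p minus miR-100-3p were -3.08 ± 0.38 (spot error) for FUT8-AS1, -2.59 ± 0.33 for IL1B, 2.05 ± 0.32 for ARHGEF40, 2.28 ± 0.38 for BAI1 and 3.07 ± 0.38 for ENTPD2. The mock channels of these genes differed by -0.16 to 0.13 on the log2 scale.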

How the results depend on the processing

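No paired analysis was possible because there was a single array for every transfection, and no replicate could be left out. The number of arrays limits every value: spot errors say nothing of how another culture would differ. Counts below are in the order difference at or below -1, difference at or above 1, lower on both, higher on both, specific lower and higher with miR-99a-3p, specific lower and higher with miR-100-3p, and opposed with miR-99a-3p lower and higher, reported as 738, 646, 14, 33, 396, 293, 21, 25, 2 and 3. With normexp and loess they were 511, 293, 5, 7, 282, 141, 8, 14, 1 and 0. With 1 channel above background on each array they were 1259, 1198, 101, 43, 695, 377, 190, 40, 14 and 28, and with no filter 3419, 2862, 229, 190, 1299, 1213, 474, 948, 110 and 70. With a size of 0.58 they were 2154, 2179, 216, 261, 1319, 1214, 202, 176, 47 and 61, and with a size of 1.5 they were 205, 143, 0, 3, 96, 54, 2, 2, 0 and 0. Centring each array on its median gave 824 and 552 differences past 1 and 5 genes lower with miR-99a-3p and higher with miR-100-3p, and 59.9% of calls were negative. Of 804 calls after normexp and loess 797 were also calls as reported, and 0 had the other sign. The median difference of the kinetochore list was -1.22 with normexp and loess. That of the cytokine list was -0.79 with 1 channel above background and -0.53 with no filter, and that of the other cell types 0.66 and 0.40. The difference of RECK was -0.12 with its lowest probe, and 4 other named genes moved with theirs, DDB2 to -1.58. Of 91 named genes 23 moved with normexp and loess and 0 changed sign, DTL to -2.59 and RRM2 to -1.92. The Cy5 signals alone gave 743 and 584 differences past 1, and groups by array could not be formed from them. Asking for more than 2 spot errors, an alternative chosen after seeing the data, left 738 and 646, which the size of 1 nearly fixes. The cause of these changes was not tested.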
